A study of Homo sapiens with 15 samples.

Results

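The interiors of 9563 protein-coding genes were compared by strand in the human chronic myeloid leukaemia cell line K562. SSiNGLe-P1 records 3′-OH ends of DNA at single-base resolution, and P1 is a nuclease that prefers single-stranded nucleic acid. Limited digestion thus adds ends in stretches of endogenous single-stranded DNA to the breaks that nuclei already carry. The 15 samples comprised 3 biological replicates each of wild-type K562 nuclei, crosslinked with formaldehyde, without P1 and with 0.01, 0.1, 1 or 10 U of the enzyme, and no other agent or allele separated the groups. Nuclei came from cells in bulk and K562 is 1 line, so the replicates give the spread of the assay within that line. A site is a unique position and strand with at least 1 end, counted once however many reads it had.

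Members were the genes of type protein_coding in GENCODE version 44 lifted to hg19, on chromosomes 1 to 22 and X, that were over 10 kb long and overlapped no other protein-coding gene. They were 9563 of 20098 protein-coding genes, or of the 14862 above 10 kb. The interior ran from 2 kb after the gene start to 2 kb before its end, which left 878.0 Mb, 5.26% of it exon. The genes lay on the plus strand in 4902 cases and on the minus strand in 4661, and their median length was 44.9 kb (10.0 to 2474 kb) and their median interior GC content 42.5% (29.7 to 70.7%). Each interior was given a control of equal length made of the nearest intergenic bases on its chromosome, read on the strand of its gene.

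When RNA polymerase II copies a gene, the template strand pairs with the nascent RNA and the non-template strand, which has the sequence of the RNA, is left unpaired for the length of the bubble. In an R-loop the RNA stays on the template strand over a longer stretch and the non-template strand is looped out. Transcription also leaves marks in the sequence itself: human genes carry more T than A on the non-template strand. The ratio of template to non-template sites, called the strand ratio here, sets both strands of the same DNA against each other, so that depth, copy number and the number of cells cancel within a sample.

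Each sample held 668590 to 1246301 sites in gene interiors, 32.3 to 32.9% of its 2057216 to 3881950 nuclear sites, and the median gene had 691 sites over the 15 samples. Of the members, 46 had no site in any sample, 25 of them on chromosome 6 and 12 on chromosome X. The density of sites followed the known genome of the line. CDKN2A, a tumour suppressor in the 9p21 region that K562 has lost, held 1 site, or 0.0425 per kb, and its neighbour MTAP held 26, or 0.198 per kb. The median member had 15.97 sites per kb, while BCR, a partner of the amplified BCR-ABL1 fusion, had 176 and NUP214 on chromosome 9 had 109. None of the members was chosen by any of these values.

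The strand named in the files is that of the sequencing read, which is opposite to the broken strand. Of 39213030 sites examined, 0 had more than 7 T among the 20 bases upstream on the strand given in the files, and 7715437 (19.7%) had more than 7 on the other strand. This is the trace of a step of the study that removed ends with T-rich upstream sequence, and it fixed the direction used throughout. The paper gives the purpose of the step as avoiding ends that probably came from priming inside A-rich genomic sequence. A template site below is a 3′-OH end on the template strand. Positions that this step could have kept numbered 620.8 Mb on the template strand and 681.4 Mb on the non-template strand of the interiors, a ratio of 0.911, against 0.997 in the intergenic control. A second reference, called the sequence expectation, gave each eligible position the rate at which its 5-base context had yielded sites in intergenic DNA of the same sample.

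A few positions carried the same break in every library. Among positions in the interiors, 4140 were sites in at least 5 samples, 2103 on the template and 2037 on the non-template strand, and 284 were sites in all 15, 136 template and 148 non-template. Of the positions in all 15 samples, 5 of those with the most ends are printed from hg19 (GRCh37), each with 15 bases on either side of the deposited position in capitals, 5′ to 3′ on the broken strand. They are shown because such positions weigh on a gene's ratio in each sample. All 5 lie in introns, and not every position with as many ends is reported here.

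TP53BP2, non-template, chr1:224006249-224006279, minus strand: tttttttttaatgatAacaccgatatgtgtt
CCDC186, non-template, chr10:115931320-115931350, minus strand: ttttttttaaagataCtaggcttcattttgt
LRP2, template, chr2:170091750-170091780, plus strand: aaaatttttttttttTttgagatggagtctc
IMPG1, template, chr6:76672007-76672037, plus strand: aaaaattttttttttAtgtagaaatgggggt
TEX11, template, chrX:69937171-69937201, plus strand: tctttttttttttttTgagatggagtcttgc

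A run of T lay on the broken strand upstream of or across the position in all 5. The position in LRP2, which encodes the endocytic receptor megalin, gathered 10862 ends, from 220 to 1201 per sample with a median of 697. The other 4 gathered 2133 to 4473 ends in all.

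Seen over all genes, both strands carried nearly equal numbers of sites, with a small and constant excess on the non-template strand. The strand ratio was 0.947, 0.966 and 0.968 in the 3 untreated samples and 0.964, 0.968 and 0.958 at 0.01 U. It was 0.964, 0.960 and 0.965 at 0.1 U, 0.948, 0.953 and 0.938 at 1 U, and 0.955, 0.959 and 0.952 at 10 U. Every one of the 15 values lay below 1, the untreated samples included, and the untreated range overlapped that of every other group. The 1 U samples lay below those at 0.01 and 0.1 U, and the 10 U samples below those at 0.1 U. The mean was 0.958 ± 0.00879 (SD, n = 15; exact two-sided sign-flip permutation test of the log2 ratio, p = 6.10e-05, the smallest p that 15 samples allow). The intergenic control had a ratio of 0.999 ± 0.00306 and was above 1 in 3 of 15 samples (the same exact test, p = 0.108). The difference of log2 ratios between interiors and control was -0.061, below 0 in 15 of 15 samples (exact p = 6.10e-05). Counting error alone gave each sample's ratio a 95% Wilson interval of ± 0.00333 to 0.00457, which treats ends as independent and covers no other error.

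The sequence of the genes moved with that difference. The sequence expectation for the strand ratio was 0.948 on average, lower than the measured ratio, and the measured ratio over the expectation was 1.01 ± 0.00724, above 1 in 13 of 15 samples (exact p = 0.000488). Divided by eligible positions instead, the ratio was 1.05 ± 0.00965 and above 1 in 15 of 15 samples (exact p = 6.10e-05). The sign of the strand difference therefore depended on the reference: below 1 as counted, above 1 per eligible position and near 1 against the sequence expectation. With positions within 100 bases of a run of 8 or more A or T left out, the counted ratio was 0.952, below 1 in all 15 samples.

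**Figure D1:**
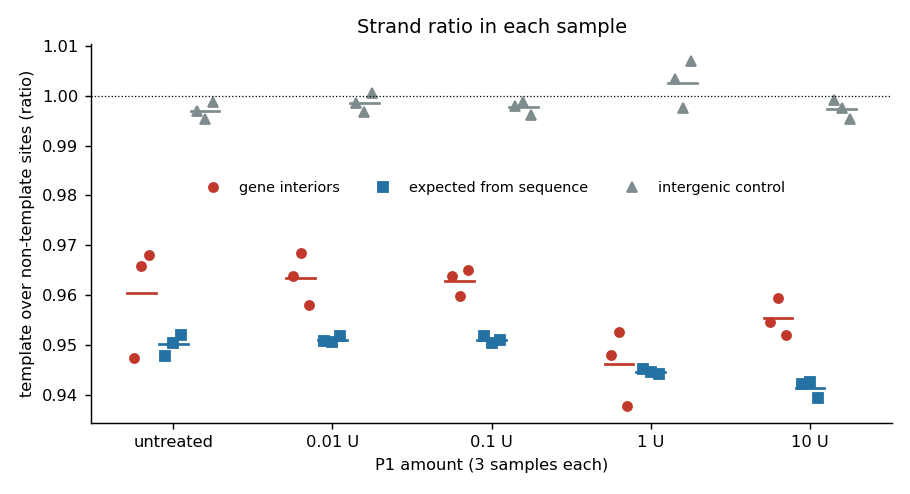
The strand ratio (template over non-template sites, vertical axis) is plotted for the 3 samples of each P1 amount (horizontal axis), for gene interiors (circles), the value expected from sequence (squares) and the intergenic control (triangles); short lines are means of 3. All interiors lie between 0.938 and 0.968, most of them slightly above their expectation, and the control lies near 1.

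The pooled ratio differed little between P1 amounts. Without P1 the mean ratio was 0.960 ± 0.0113, and with 0.01 and 0.1 U it was 0.963 ± 0.00521 and 0.963 ± 0.00278 (SD, n = 3 in every group). The groups given 1 and 10 U had means of 0.946 ± 0.00758 and 0.955 ± 0.00368. The amounts spanned 0.026 on the log2 scale, and the exact permutation test over amounts within replicate numbers gave p = 0.0712. In the genes that overlap no gene of any type the same exact test gave p = 0.0135 with a span of 0.031, and away from runs of A or T p = 0.0196 with a span of 0.027. Against the sequence expectation the exact p was 0.174.

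Longer genes had lower strand ratios, and so did AT-rich genes. The ratio was 0.979 ± 0.0146 in the 3432 genes of 10 to 30 kb, 0.961 ± 0.0117 in the 3660 of 30 to 100 kb, 0.953 ± 0.00836 in the 1869 of 100 to 300 kb and 0.955 ± 0.00841 in the 602 above 300 kb (SD over 15 samples). The longest class lay below the shortest by a log2 difference of -0.036, and did so in every sample (p = 6.10e-05 by exact permutation of signs). The upper classes did not continue the order, since the means at 100 to 300 kb and above 300 kb lay within 1 SD of each other. From the lowest to the highest quartile of GC the ratio was 0.931, 0.947, 0.969 and 0.990, a log2 difference of 0.089 between the ends that was above 0 in 15 of 15 samples (exact p = 6.10e-05).

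The sequence expectation had the same slopes. It was 0.974, 0.952, 0.942 and 0.944 over the length classes and 0.924, 0.940, 0.960 and 0.986 over the GC quartiles. Relative to it the longest class differed from the shortest by 0.0088 (exact p = 0.0539) and the GC-rich from the AT-rich quartile by -0.0045 (exact p = 0.345) on the log2 scale. In the intergenic controls of the same genes the corresponding differences were -0.0078 for length (exact p = 0.123) and 0.0082 for GC (exact p = 0.0479). In 1 logistic model per sample, the log odds of a template site rose by 0.0456 for each SD of the log2 ratio of eligible positions and by 0.0106 for each SD of GC (exact p = 6.10e-05 for both over 15 samples). The coefficient of gene length was 0.00062 per SD (exact p = 0.5001).

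**Figure D2:**
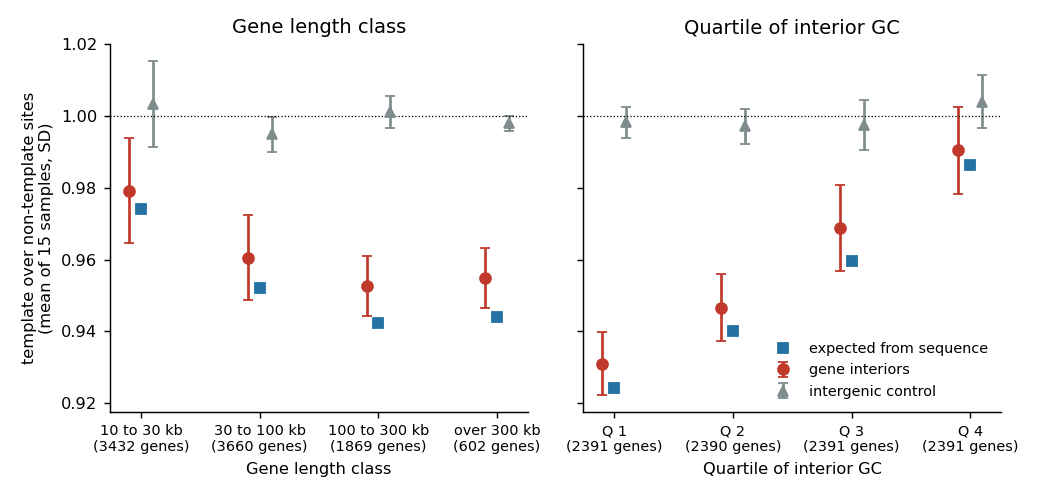
The strand ratio (vertical axis, mean and SD of 15 samples) is plotted by gene length class (left) and by quartile of interior GC (right) for gene interiors, their sequence expectation and the intergenic control. The interiors climb from 0.931 to 0.990 with GC while the control stays near 1, and the expectation runs just below the interiors in every class.

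Short genes were the class in which the ratio differed most between amounts. In genes of 10 to 30 kb untreated nuclei had a mean ratio of 0.994 ± 0.0161 (SD, n = 3 in every group). Nuclei given 0.01 and 0.1 U had 0.987 ± 0.00951 and 0.985 ± 0.00338, and those given 1 and 10 U had 0.965 ± 0.00352 and 0.965 ± 0.00784. The samples at 1 and 10 U lay below all samples of the other groups. The exact block permutation test gave p = 0.00597, or 0.0478 after Benjamini-Hochberg adjustment over the 8 classes of length and GC, and none of the other 7 classes had an adjusted p below 0.0885. In the control of these short genes the ratio was 0.991, 1.00, 1.00, 1.02 and 0.997 in the order of the amounts. Over the sequence expectation the short genes had ratios of 1.02, 1.01, 1.01, 0.993 and 0.997 in the order of the amounts.

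Along the gene the ratio rose toward the end. With each interior split into 10 equal sections, it was 0.949 ± 0.0169 in the first, 0.952 in the fifth and 0.981 ± 0.0101 in the last (SD, n = 15). The last section exceeded the first in every sample, by 0.049 on the log2 scale (p = 6.10e-05 by exact permutation of signs). Divided by eligible positions the difference turned to -0.047, above 0 in 1 of 15 samples (p = 0.000183 by exact permutation of signs). The sequence expectation went from 0.937 to 0.970 over the same stretch. The measured ratio over the expectation stayed between 1.005 and 1.014 in all 10 sections, with a difference between the ends of -0.000051 (exact p = 0.993).

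Exons and introns stood on opposite sides of 1. In exons the strand ratio was 1.03 ± 0.0143, above 1 in 15 of 15 samples, and in introns it was 0.952 ± 0.00898, below 1 in 15 of 15 (SD, n = 15). The difference was 0.11 on the log2 scale (exact p = 6.10e-05). Unlike the slopes over length, GC and position, it remained against the sequence expectation, where exons stood at 1.04 ± 0.0147 and introns at 1.01 ± 0.00721, a log2 difference of 0.047 that was above 0 in 15 of 15 samples (exact p = 6.10e-05). Exons were above their expectation without P1 as well, at 1.05 ± 0.0214, and at 1.05 ± 0.0179 with 10 U. Divided by eligible positions, however, the difference was -0.0031 (exact p = 0.561).

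**Figure D3:**
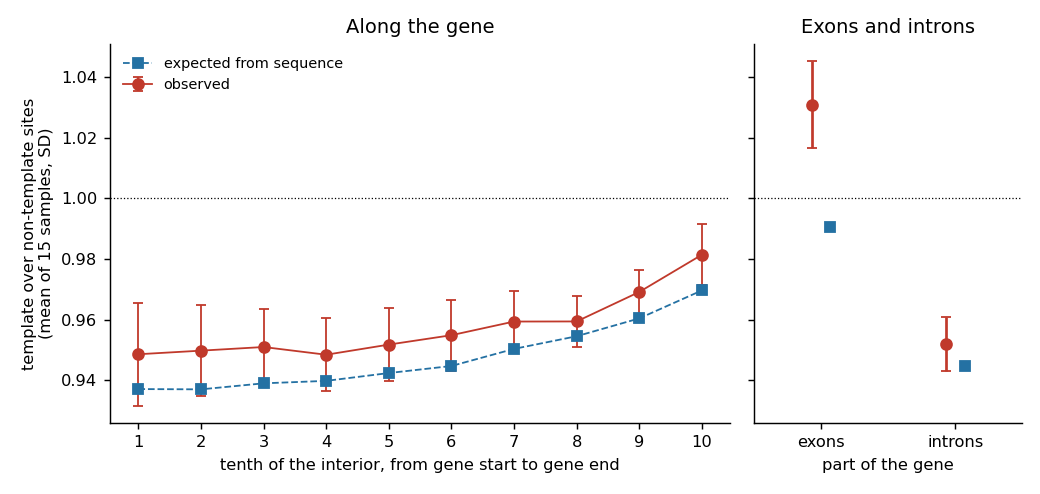
The strand ratio (vertical axis, mean and SD of 15 samples) is plotted by section of the interior (10 of equal length) from gene start to gene end (left) and for exons and introns (right), with the value expected from sequence as squares. The rise from 0.949 to 0.981 along the gene is matched by the expectation, and exons at 1.03 lie above theirs.

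Sites that the study had assigned to clusters of P1 cuts, called with SICER on both strands together in the 12 treated samples, made up 0.943 to 4.34% of interior sites. Their strand ratios were 1.02, 0.994 and 1.02 at 0.01 U, 1.07, 1.00 and 1.05 at 0.1 U, 1.04, 1.02 and 0.922 at 1 U, and 1.05, 1.04 and 1.09 at 10 U. The ratio was above 1 in 10 of 12 samples, with a mean of 1.03 ± 0.0422 (exact sign-flip permutation test, p = 0.0679). Clustered sites exceeded the other interior sites of the same sample in 11 of 12 samples, by 0.10 on the log2 scale (exact p = 0.000977). The exception was replicate 3 at 1 U.

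The bases around the deposited position were nearly alike on both strands. The base after it was A for 36.8% of template and 35.4% of non-template sites in untreated nuclei. With 0.01 U these shares were 36.9 and 35.5%, with 0.1 U 37.1 and 35.8%, with 1 U 41.6 and 40.4%, and with 10 U 44.02 and 43.1%. The samples at 1 and 10 U lay above all others on both strands (exact block permutation test, adjusted p = 0.00882 for each strand, Benjamini-Hochberg over 60 combinations of offset, base and strand). The difference between the strands was 1.38 percentage points without P1 and 0.869 at 10 U (adjusted p = 0.0921). For comparison, the coding (non-template) strand of the interiors held 28.1% A, 20.1% C, 21.0% G and 30.7% T. Bases are given on the broken strand, so the share of A over all interior bases is 28.1% for non-template sites. For template sites it is 30.7%, the complement of that T. Both shares cover all positions, also those that the T-rich step removed. That step takes out positions followed by many A on the broken strand, so these shares are not a matched reference for the sites.

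At the level of single genes, the 9139 members with at least 10 sites in at least 3 samples were tested, and 820 of them differed between strands at a false discovery rate of 0.05 (edgeR quasi-likelihood test with Benjamini-Hochberg adjustment), 8.97% of those tested. The non-template strand was higher in 744 (8.14%) and the template strand in 76 (0.832%). The genes higher on the non-template strand had a median length of 130 kb and a median GC of 39.4%, against 44.2 kb and 43.0% for genes not called, and those higher on the template strand 32.4 kb and 45.8%. Long genes tend to hold more sites, and with more sites a smaller difference is called. These lengths are therefore not a measure of the size of the difference. With the sequence expectation as offset, 115 genes (1.26%) were called, 66 (0.722%) template and 49 (0.536%) non-template. Of these, 42 of the 76 and 46 of the 744 were called in both fits with the same sign. Offset by eligible positions, 607 genes were higher on the template strand and 78 on the non-template strand, TMM scaling of the columns gave 166 and 220, and DESeq2 with its size factors called 28 (15 and 13).

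The 6 genes with the lowest adjusted p on each side spanned many functions. On the template side, CASQ1, the calsequestrin of skeletal muscle, held 208 template and 101 non-template sites, and its ratio ran from 1.14 to 2.85 over the samples with a median of 2.00. TXLNA, a syntaxin-binding protein, held 363 and 217 (0.765 to 3.55, median 1.75). TFR2, the second transferrin receptor and an iron sensor of liver and erythroid cells, held 513 and 336 (0.739 to 3.11, median 1.59). These genes had a template excess in most samples of each amount, CASQ1 in all 15, TFR2 in 14 and TXLNA in 12. NFU1, which builds iron-sulphur clusters, held 398 and 249, MANBAL 438 and 277, and ASXL2, a partner of a Polycomb deubiquitinase, 1154 and 897. The fitted log2 ratios of the 6 ran from 0.36 ± 0.069 (SE) in ASXL2 to 1.02 ± 0.18 in CASQ1, with adjusted p of 3.23e-05 or below (edgeR). All 6 were also called over the sequence expectation (adjusted p 0.000743 or below, edgeR).

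On the non-template side, NUP214, a nucleoporin on the cytoplasmic face of the pore, held 5239 template and 6242 non-template sites, and all 15 samples had a ratio below 1 (0.670 to 0.943, median 0.837). Its expectation from sequence was 0.875, and over the expectation it was not called (adjusted p = 0.351, edgeR). EPC2, a subunit of the NuA4 acetyltransferase complex, held 1232 and 1646 sites with an expectation of 0.808 and was not called over it either (adjusted p = 0.420, edgeR). The other 4 were called over the expectation. NLK, the Nemo-like kinase, held 872 and 1253 sites (0.517 to 0.933, median 0.681), ZBTB2, a zinc-finger transcription factor, 252 and 445 (0.304 to 0.964, median 0.536), and MUC3A, a membrane mucin with a tandem repeat, 777 and 1145 (0.465 to 0.961, median 0.640). All 15 samples had fewer template than non-template sites in these 3 genes. TTC34 held 2098 and 2683 sites although its sequence expectation was 1.20, the opposite direction.

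**Figure D4:**
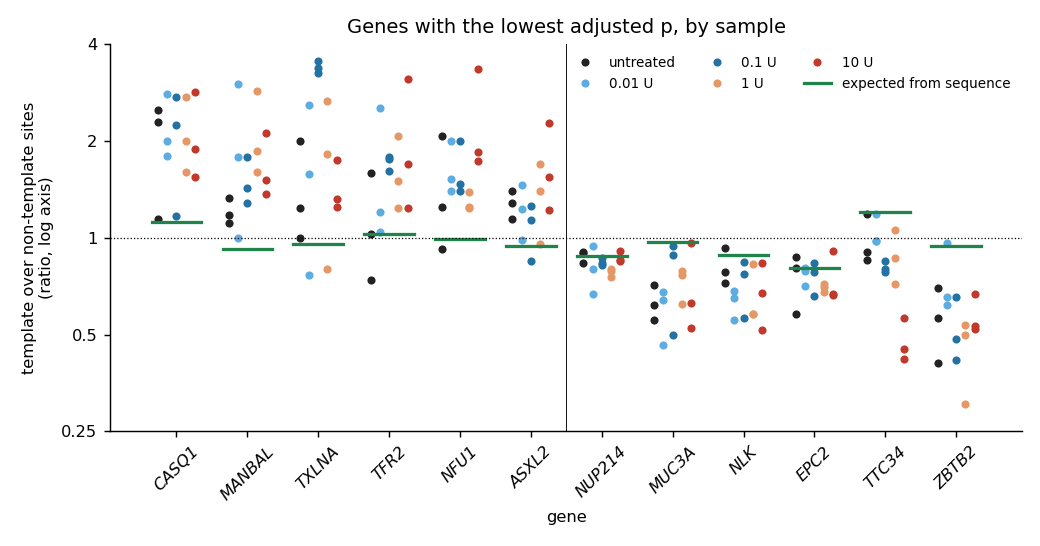
The strand ratio (vertical axis, log axis) of the 6 genes with the lowest adjusted p on each side is plotted per sample, coloured by P1 amount, with the value expected from sequence as a line. CASQ1 lies above 1 and NUP214, MUC3A, NLK, EPC2 and ZBTB2 lie below 1 in all 15 samples, and TTC34 drops to 0.421 to 0.562 at 10 U.

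For each named gene the 1 kb window with the largest strand difference was taken. In 7 of these 12 genes it gave over 50% of the net difference between strands. Such a share was not particular to called genes. Among named genes that were not called, it was 78.4% in ANK1, 60% in HBS1L and 52.8% in TAF1, and below 50% in the others. Short genes also have few windows, 8 in CASQ1 and 15 in TXLNA. In TXLNA a window in the last exon held 131 template and 4 non-template sites, 87.0% of the difference, and without it the ratio of the gene was 1.09 in place of 1.67. In ASXL2 an intronic window held 194 and 3 sites, from 7 to 22 template sites per sample, and the ratio without it was 1.07 in place of 1.29. In TFR2 the window held 143 and 22 sites (ratio without it 1.18), in CASQ1 76 and 19 (1.61), in NLK 9 and 297 (0.903), in ZBTB2 17 and 137 (0.763) and in MUC3A 424 and 680 (0.759). The window of MUC3A alone held 57.4% of the sites of the gene, while its median window held 0. The ratio of MUC3A thus describes a small part of its interior, and whether repeated sequence bears on its counts was not tested. NUP214 and EPC2 had no such window, the leading one holding 10.4 and 5.31% of their differences.

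Of these lead windows, 4 are given by 61 bases of hg19 around the position found in most samples, in capitals, 5′ to 3′ on the broken strand. They are printed because they carry the strand difference of their gene. The sequence of NLK holds a run of T across the position, and those of CASQ1 and MUC3A are exonic and hold no run of 8 or more.

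ASXL2, template, chr2:26079976-26080036, plus strand: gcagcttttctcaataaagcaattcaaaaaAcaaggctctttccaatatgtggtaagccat
CASQ1, template, chr1:160165260-160165320, minus strand: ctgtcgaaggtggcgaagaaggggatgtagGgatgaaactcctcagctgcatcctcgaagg
NLK, non-template, chr17:26448505-26448565, plus strand: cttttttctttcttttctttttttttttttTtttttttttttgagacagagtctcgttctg
MUC3A, non-template, chr7:100550838-100550898, plus strand: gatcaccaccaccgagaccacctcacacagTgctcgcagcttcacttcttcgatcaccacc

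The capital position was a site in 11 samples in ASXL2, 3 in CASQ1, 15 in NLK and 14 in MUC3A. On the richer strand, the sites of the NLK window lay on 43 positions and those of ASXL2 on 93, so more than 1 base gave the difference. They were close together all the same, with an interquartile span of 10 bases in NLK and 47 in ASXL2. With positions that were sites in 3 or more samples left out, ASXL2 (adjusted p = 0.0615), MUC3A (0.195), NLK (0.128) and ZBTB2 (0.0783) were not called (edgeR). With positions near runs of A or T left out, TXLNA (adjusted p = 0.407), TFR2 (0.324), NFU1 (0.0533) and NLK (0.502) were not called (edgeR). CASQ1 and MANBAL were called in every alternative fit.

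The longest members were neuronal or muscle genes with many sites each. RBFOX1, a splicing regulator of neurons and at 2474 kb the longest, held 16340 template and 17821 non-template sites, with ratios of 0.845 to 1.01 and a median of 0.897 (log2 ratio -0.13 ± 0.019 SE, edgeR adjusted p = 2.16e-08). CNTNAP2, a neuronal adhesion protein, held 14900 and 16026 sites (0.860 to 1.00, median 0.924; log2 ratio -0.10 ± 0.019, edgeR adjusted p = 1.57e-05). DMD, which encodes dystrophin, held 6284 and 6479 (median 0.956), PTPRD, a receptor phosphatase, 4866 and 4896 (median 0.988) and DLG2, a synaptic scaffold, 9010 and 9026 (median 1.00). The last 3 were not called (edgeR adjusted p 0.324 or above). Over the sequence expectation all 5 log2 ratios lay between -0.030 and 0.025 with SE of 0.018 to 0.031, and none was called. In RBFOX1 a single intronic window held 4 template and 121 non-template sites, and in CNTNAP2 one held 4 and 83.

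In the erythroid and leukaemia programme of the line, of 22 members tested from a list of 40, 3 were higher on the non-template strand (NFIA, GATA2 and KIT) and 0 on the template strand. These were 13.6% of the list, against 8.97% of all genes tested, and the median log2 ratio was -0.025 against -0.058 over all genes tested. GATA2, a haematopoietic transcription factor, held 106 template and 180 non-template sites (log2 ratio -0.75 ± 0.19 SE, edgeR adjusted p = 0.00273) where sequence gave an expectation of 1.01, and it was called over that expectation too (adjusted p = 0.00958). KIT, the stem cell factor receptor, held 523 and 696 (adjusted p = 0.000337), with an expectation of 0.860, and was not called over it (adjusted p = 0.330). NFIA, a factor of lineage choice, held 4804 and 5111 (adjusted p = 0.0476), and was not called over its expectation of 0.947 (adjusted p = 0.932, edgeR) or with replicate 1 or 2 left out. The long erythroid genes ANK1, the ankyrin of the red cell membrane, with 3386 and 3335 sites, and HBS1L, a translation factor gene beside MYB, with 872 and 842, were not called.

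In the gene expression machinery, 1 of 31 members tested was called (3.23%, against 8.97% of all genes), the splicing factor gene SF3B1, with 211 template and 287 non-template sites (edgeR adjusted p = 0.0311), and the median log2 ratio of the list was -0.14 as counted and -0.011 over the expectation. TAF1, the largest subunit of TFIID, held 1054 and 982 sites, POLR3B of RNA polymerase III 935 and 1012, and MED13 of the Mediator kinase module 657 and 746. In DNA replication and repair, 4 of 29 were called (13.8%, against 8.97% of all genes). ATR, the kinase of the replication stress response, was higher on the template strand, with 761 and 630 sites (adjusted p = 0.0195), while CDC6, an origin licensing factor (97 and 149), PRIM2, the large primase subunit (2805 and 3243), and POLA1, the catalytic subunit of polymerase alpha (1182 and 1378), were higher on the non-template strand. None of the 4 was called over the sequence expectation. PRIM2 has near-identical copies elsewhere in the genome, so its counts are uncertain.

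The synaptic and neuronal genes, most of which are silent in blood cells, had the most calls. Of 38 tested, 12 were higher on the non-template strand and 0 on the template strand, 31.6% against the 8.14% of all genes. Their median length was 969 kb and their median GC 37.2%, against 47.7 kb and 42.6% over all genes tested. Their median log2 ratio was -0.073, against -0.058 over all genes tested. Genes of this length tend to hold many sites, so the share called does not measure the size of the difference. Over the sequence expectation 0 of 38 were called and the median was -0.0043. Only 1.26% of all genes tested were called in that fit, so a count of 0 in 38 says little about this list. Of 30 liver and muscle genes, 2 were higher on the non-template strand, 6.67% against the 8.14% of all genes. They were CPS1 of the urea cycle (515 and 625 sites) and MYOM1 of the sarcomere (1375 and 1663). The long sarcoglycan genes SGCD (3648 and 3813) and SGCZ (3866 and 4076) were not called. MYOM1 was also called over the expectation (edgeR adjusted p = 0.00519). All 5 lists had a median below 0 as counted. Whether expression itself moved with the ratio was not tested, since the files used here hold no RNA measurement.

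Against untreated samples, the strand ratio of 0 genes changed at 0.01, 0.1 and 1 U, and of 1 of 9139 (0.0109%) at 10 U (edgeR quasi-likelihood test of the interaction, false discovery rate 0.05). At an unadjusted p under 0.05 the counts were 425, 398, 409 and 572, and DESeq2 called 0 at each amount. The 1 gene was TTC34. It held 340 template and 376 non-template sites, 81 and 95, and 121 and 102 in the untreated samples. At 10 U it held 115 and 255, 181 and 322, and 117 and 278. The ratio was thus 0.451, 0.562 and 0.421 at 10 U, against 0.853 to 1.19 without P1 and 0.717 to 1.19 at the lower amounts, with no overlap. The log2 ratio at 10 U was lower by 0.98 than without P1 (adjusted p = 4.19e-09). Non-template sites were 573 without P1 and 855 at 10 U, and template sites 542 and 413. TTC34 is GC-rich (59.1%), and its leading window held 26, 34 and 20 non-template sites at 10 U against 38, 7 and 5 without P1. Over all samples that window held 145 template and 238 non-template sites, while the median window of the gene held 5.5 sites. Part of that intronic stretch is shown because it holds the largest strand difference in the gene, with the position found in most samples in capitals. Its first bases return nearly unchanged toward its end, and whether repeated sequence bears on these counts was not tested.

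TTC34, non-template, chr1:2583649-2583709, minus strand: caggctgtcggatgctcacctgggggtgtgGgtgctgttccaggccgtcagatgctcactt

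Some leading windows of other named genes also differed at 10 U. These windows had been taken as the most unequal of the gene over all 15 samples, and their values by amount are a description. In MED13 an intronic window held 5, 9 and 9 template sites at 10 U and 0 to 2 in the other 12 samples. In SGCD one held 4, 7 and 6 template sites at 10 U and 0 or 1 elsewhere, with 0 non-template sites in any sample. In MANBAL one held 13, 15 and 12 template sites at 10 U and 0 to 7 elsewhere, and in DMD one held 3, 5 and 4 non-template sites at 10 U and 0 to 2 elsewhere. In CNTNAP2 the direction was the opposite, with 1, 0 and 0 non-template sites at 10 U and 4 to 13 elsewhere. The broken strand of the first 2 is printed to show their sequence, with the position found in most samples in capitals.

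MED13, template, chr17:60127713-60127773, plus strand: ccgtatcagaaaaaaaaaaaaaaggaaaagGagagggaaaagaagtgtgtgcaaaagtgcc
SGCD, template, chr5:155383122-155383182, minus strand: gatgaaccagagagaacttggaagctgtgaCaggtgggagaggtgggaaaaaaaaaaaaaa

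Both sequences carry a run made only of the purines A and G, and they were picked for it after their letters had been seen. The run of SGCD is mostly A, lies at the end of the printed bases and is, as printed, shorter than 30 bases. The 61 bases around the leading positions of MANBAL and DMD held no long purine run. Runs of purines facing pyrimidines are known to adopt triplex (H-DNA) forms in which part of the pair is single-stranded. Whether ends gained at 10 U near such runs came from single-stranded or double-stranded DNA was not tested. After these values had been seen, all unbroken purine runs of at least 30 bases with at least 20% GC were taken from the interiors. The 30456 runs lay in 5918 genes, with the purines on the template strand in 18773 and on the non-template strand in 11683, a ratio of 1.61. Sites within 50 bases of a run were 0.440, 0.406 and 0.407% of interior sites without P1, 0.415, 0.432 and 0.384% at 0.01 U, and 0.401, 0.413 and 0.421% at 0.1 U. They were 0.460, 0.501 and 0.486% at 1 U and 0.553, 0.554 and 0.570% at 10 U. The samples at 1 U lay above all samples of lower amounts and those at 10 U above all others, 1.34 times the untreated mean (exact block permutation test, p = 0.00236, or 0.00562 adjusted over 9 measures of these runs).

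Both strands shared the rise. Of template sites, 0.408 ± 0.0125% lay near a run without P1 and 0.557 ± 0.0165% at 10 U, and of non-template sites 0.428 ± 0.0260% and 0.561 ± 0.00362% (SD, n = 3 each; exact permutation test, adjusted p = 0.00562 for each strand). The strand ratio near the runs was 0.917 ± 0.0383 without P1 and 0.949 ± 0.0208 at 10 U (exact permutation test over amounts, adjusted p = 0.570). Eligible positions there stood at 0.784, so per eligible position the template strand was higher. The purine strand carried 0.755 ± 0.136 sites for each on the pyrimidine strand without P1 and 0.782 ± 0.0917 at 10 U (exact permutation test, adjusted p = 0.338). Eligible positions stood at 0.432, so per eligible position the direction turned and the purine strand was higher. The same rise was present outside genes, where 0.537 ± 0.0172% of intergenic sites lay near a run without P1 and 0.718 ± 0.0257% at 10 U, 1.34 times as many. The share in interiors over that in intergenic DNA was 0.778 ± 0.0110 without P1 and 0.780 ± 0.0291 at 10 U (exact permutation test, adjusted p = 0.986).

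**Figure D5:**
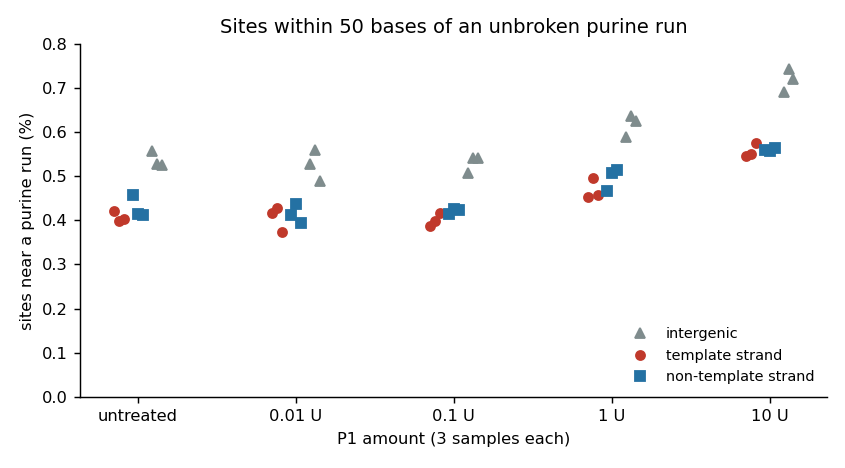
The percent of sites within 50 bases of an unbroken purine run (vertical axis, from 0) is plotted per sample by P1 amount for template sites, non-template sites and intergenic sites. Both strands of gene interiors climb together from about 0.41% without P1 to 0.56% at 10 U, and intergenic sites climb from 0.537 to 0.718% on average.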

How the data were processed

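Reads of 15 K562 libraries had been aligned by the authors with BWA-MEM 0.7.12 to hg19, and the files deposited hold counts of 3′-OH ends per position and strand, not normalized. Per the methods, ends with a T-rich stretch of 20 bases upstream were removed; whether PCR duplicates were removed is not given in the sources used here. Clustered sites had been called by the authors with SICER 1.1 against the untreated sample that bore the same number.

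Each position and strand was counted as 1 site. Strand ratios were pooled over genes within a sample and tested over samples by exact two-sided permutation of signs (32768 arrangements) or of amounts within replicate numbers (14400 arrangements). Genes with at least 10 sites in at least 3 samples, 9139 in all, were tested with edgeR 4.0.16 (quasi-likelihood, sample as block, library size the nuclear sites, Benjamini-Hochberg, threshold 0.05), and with DESeq2 1.42.0 as an alternative, in R 4.3.3. In counts simulated for the comparison of strands over 9139 genes, the test recovered 16 of 50 genes changed by 1.25-fold, 40 of 50 by 1.5-fold, 46 of 50 by 2-fold and 50 of 50 by 3-fold, with 9 false calls. The simulation used a fixed dispersion larger than the 0.00124 estimated from the data, and no strand shift shared by all genes. These counts describe the test in that setting only.

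The genes named are the 6 with the lowest adjusted p in each direction, the 5 longest, the 3 longest of each gene list and the genes called in these lists. Members and lists were chosen with earlier results of these data known. The sequence expectation, the removal of positions near runs of A or T, and the purine runs were chosen after seeing the data. Exons and introns are those of GENCODE version 44, and sequences are from GRCh37. Statistics of whole SICER regions and mitochondrial values beyond the check of strand were not used here. Some items that this rule names are not reported here. Of the sites of a sample, 86.2 to 92.5% held a single end.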

Additional observations from a re-analysis of the deposited data

Results flagged for a closer look

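TTC34 was the 1 gene whose strand ratio differed from untreated by the edgeR test, at 10 U, with a log2 difference of -0.98. DESeq2 did not call it, and the untreated samples held 176 to 716 sites in the gene.

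Sites within 50 bases of a purine run made up 1.34 times as large a share of interior sites at 10 U as without P1, and the share outside genes rose 1.34 times too.

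The share of A as the base after the deposited position on the template strand was 7.25 percentage points higher at 10 U than without P1, with no overlap between the samples, and the rise on the non-template strand stood beside it (43.1% against 35.4%).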

How the results depend on the processing

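Values are log2 differences unless said otherwise. Divided by eligible positions, by sites expected from sequence, and by eligible positions away from runs of A or T, the strand ratio of interiors was 0.072, 0.015 and 0.056, and against the control 0.070, 0.014 and 0.054. In the same order the difference by length was 0.0032, 0.0088 and 0.00061 and that by GC -0.0098, -0.0045 and 0.0013. The difference along the gene was -0.047 over eligible positions and -0.000051 over the expectation, and that between exons and introns -0.0031 over eligible positions. The span over amounts was 0.031 in genes overlapping no gene of any type and 0.027 away from runs of A or T, counted or per eligible position, and then passed the threshold. The clustered sites passed it without replicate 3 (0.041, against 0.023 without replicate 1 and 0.044 without replicate 2). They also passed it when divided by the eligible positions (0.17) or the expectation (0.11) of all interiors. Neither reference was computed for the clusters themselves, so both values mainly shift the counted ratio and do not compare the clusters with their own sequence. Genes with a strand difference numbered 386 with TMM (166 template, 220 non-template), 115 over the expectation (49 non-template), 28 with DESeq2 (15 and 13) and 391 to 416 with 1 replicate number left out (34 to 42 template, 357 to 382 non-template). Eligible positions gave 607 template and 78 non-template, and thinning to the fewest sites 45 template. Genes differing from untreated numbered 2 without replicate 1 and 0 with DESeq2. NUP214 turned to 0.0067 and POLA1 to 0.0076 over eligible positions, and PRIM2 to 0.058 over them and 0.0083 over the expectation. Of 336 alternatives for 28 named genes, 294 kept direction and side of the threshold. The sequence references differ in the positions they count, and other causes of these changes were not tested.

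No pairing by replicate number was visible in site density, where deviations of same-numbered samples correlated between -0.0404 and 0.0600 over 30 pairs. Sampling noise per gene lowers such values, so they do not settle whether the numbers pair the samples. A replicate block gave 837 genes in place of 820, and the test over amounts without the replicate block gave p = 0.0596 (exact permutation) with the same span of 0.026. Leaving out positions in repeats was not run, since the reference does not mark them. Depth limits single genes, whose median was 691 sites over 15 samples.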

Other observations

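In windows of 1 kb, the strand ratio at each P1 amount was compared with untreated over the 83120 windows with at least 30 sites (edgeR quasi-likelihood test, Benjamini-Hochberg). The test called 0 windows at each amount, with 1704, 1754, 1734 and 2448 at an unadjusted p under 0.05. In simulated windows it recovered 0 of 100 changed by 4-fold and 1 of 100 by 8-fold, so a count of 0 says little about single windows at this depth. Among the 4072 windows with at least 60 sites, 1 was called at 10 U and 0 at the other amounts.

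Gene by gene, the strand log2 ratios of 2 amounts correlated across 3073 genes with Pearson's r of 0.195 to 0.266, and the ratio over all samples correlated with the sequence expectation at r = 0.527 across 5856 genes. Genes are not independent replicates, and sampling noise at these counts lowers such values.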
